A study of Mus musculus with 6 samples.

Results

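The transcripts described are those of 10 genes that mark macrophages, *Lyz2*, *Mrc1*, *C1qa*, *C1qb*, *C1qc*, *Csf1r*, *Cd68*, *Ptprc*, *Tyrobp* and *Fcer1g*, which were taken by symbol from the 24421 genes of the count table. All 10 symbols were found, and all 10 passed the filter on low counts. The cells were primary endothelial cell cultures grown from the stria vascularis, the vascular tissue of the cochlear lateral wall. The methods describe isolating this tissue together with the spiral ligament. The mice were 10 to 12 days old and untreated. The cultures came from mice with a targeted disruption of *Nhe6* and from wildtype mice, with 3 cultures per genotype. The labels give C57BL/6N as the strain background of both groups, while the methods name a C57BL/6J background. By the methods, each culture pooled at least 6 mice and was purified by cell sorting with a gate that is not described. Each gave 1 RNA library, so spread between libraries is taken as spread between pools.

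Macrophages are phagocytes that live in nearly every tissue, and in the stria vascularis perivascular resident macrophage-like melanocytes (PVM/Ms) lie on the capillaries and support the blood-labyrinth barrier. Macrophages depend on the receptor Csf1r, sense immune complexes and debris through receptors that signal by way of the adaptors Tyrobp and Fcer1g, and are the main source of the complement protein C1q. Their transcripts in a culture labelled as endothelial measure macrophage content only as a whole. In bulk RNA, fewer macrophages and less RNA per macrophage cannot be told apart.

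The 6 libraries held 25587097 to 29126232 reads assigned to genes, and normalized counts are reads scaled with TMM factors to a common library size, the mean of the 6. Among 14 listed endothelial genes, *Cldn5* had 0 reads in every library and *Pecam1* had 1 to 8 reads, while *Cdh5*, *Flt1*, *Emcn* and *Eng* had at least 179 normalized counts in each library. The 10 listed fibroblast genes all averaged at least 100 normalized counts over the libraries. *Nhe6*-knockout replicates 1 and 2 were much more alike than other replicate pairs, with a chi-square per degree of freedom of 4.91 over genes against 90.1 to 398 for the other pairs, although they differed by more than sampling noise. Wildtype replicate 2 lay at 106 on principal component 1 of log2 CPM (counts scaled to library size), where the other 5 libraries lay between -28.5 and -6.52, so the comparisons are also given without it.

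Many macrophage genes are switched on by the transcription factor PU.1 (gene *Spi1*), which binds DNA around the letters GGAA. The 250 bases before the transcription start are shown for 4 of the marker genes, 5′ to 3′ along the gene, with each GGAAGT on either strand (ACTTCC on the other strand) in capitals. All 4 windows shown hold these letters, and the windows without them are not shown.
*C1qb* (GRCm38.p6, chr4:136886201-136886450, minus strand): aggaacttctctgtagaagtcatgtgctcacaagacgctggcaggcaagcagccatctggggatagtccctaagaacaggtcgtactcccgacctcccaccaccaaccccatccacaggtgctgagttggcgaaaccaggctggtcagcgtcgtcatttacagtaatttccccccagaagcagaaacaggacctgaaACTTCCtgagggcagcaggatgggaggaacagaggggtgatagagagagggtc
*C1qc* (GRCm38.p6, chr4:136892915-136893164, minus strand): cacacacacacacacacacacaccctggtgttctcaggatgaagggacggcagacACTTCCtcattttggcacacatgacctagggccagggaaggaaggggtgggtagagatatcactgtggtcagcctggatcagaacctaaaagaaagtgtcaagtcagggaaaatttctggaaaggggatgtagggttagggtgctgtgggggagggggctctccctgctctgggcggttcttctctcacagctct
*Lyz2* (GRCm38.p6, chr10:117282273-117282522, minus strand): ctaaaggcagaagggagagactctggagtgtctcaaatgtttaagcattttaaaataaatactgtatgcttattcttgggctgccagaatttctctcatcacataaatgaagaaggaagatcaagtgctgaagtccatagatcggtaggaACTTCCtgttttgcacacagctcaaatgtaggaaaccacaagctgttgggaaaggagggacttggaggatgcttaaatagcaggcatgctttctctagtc
*Mrc1* (GRCm38.p6, chr2:14229164-14229413, plus strand): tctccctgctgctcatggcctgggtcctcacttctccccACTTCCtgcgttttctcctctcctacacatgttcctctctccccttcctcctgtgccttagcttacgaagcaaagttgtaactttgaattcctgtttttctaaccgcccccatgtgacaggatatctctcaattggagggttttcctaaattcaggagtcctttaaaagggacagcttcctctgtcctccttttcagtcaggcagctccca
The RefSeq promoter table (GRCm38.p6) held an entry for 7 of the 10 genes. The 6 letters were present in the window of 5 of these 7 genes, *Lyz2*, *Mrc1*, *C1qb*, *C1qc* and *Ptprc*, and not in the windows of *Cd68* and *Fcer1g*. They were present in 19.7% of all 32851 promoter windows of this length. The letters were chosen after the sequences had been read, and a match is a description of these windows only.

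Macrophage transcripts were present in 5 of the 6 cultures and nearly missing from 1 wildtype culture. The 10 genes summed to 3522, 3926 and 1477 normalized counts in the *Nhe6*-knockout cultures, here and below in the order of replicates 1 to 3. In the wildtype cultures the sums were 3695, 99.1 and 1900. *Nhe6*-knockout replicates 1 and 2 and wildtype replicate 1 were therefore close to each other, *Nhe6*-knockout replicate 3 and wildtype replicate 3 were lower, and wildtype replicate 2 had only 96 reads on the 10 genes. The *Nhe6*-knockout mean was 2975 ± 1313 and the wildtype mean 1898 ± 1798 (SD, n = 3 each), so the means lay less than either SD apart. *Lyz2* gave most of the sum in the 5 cultures other than wildtype replicate 2, between 52.1% and 65.4% of the reads. Without *Lyz2* the sums were 1399, 1667 and 660 in *Nhe6*-knockout and 1769, 69.1 and 658 in wildtype cultures, which left the same 3 levels.

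**Figure D1:**
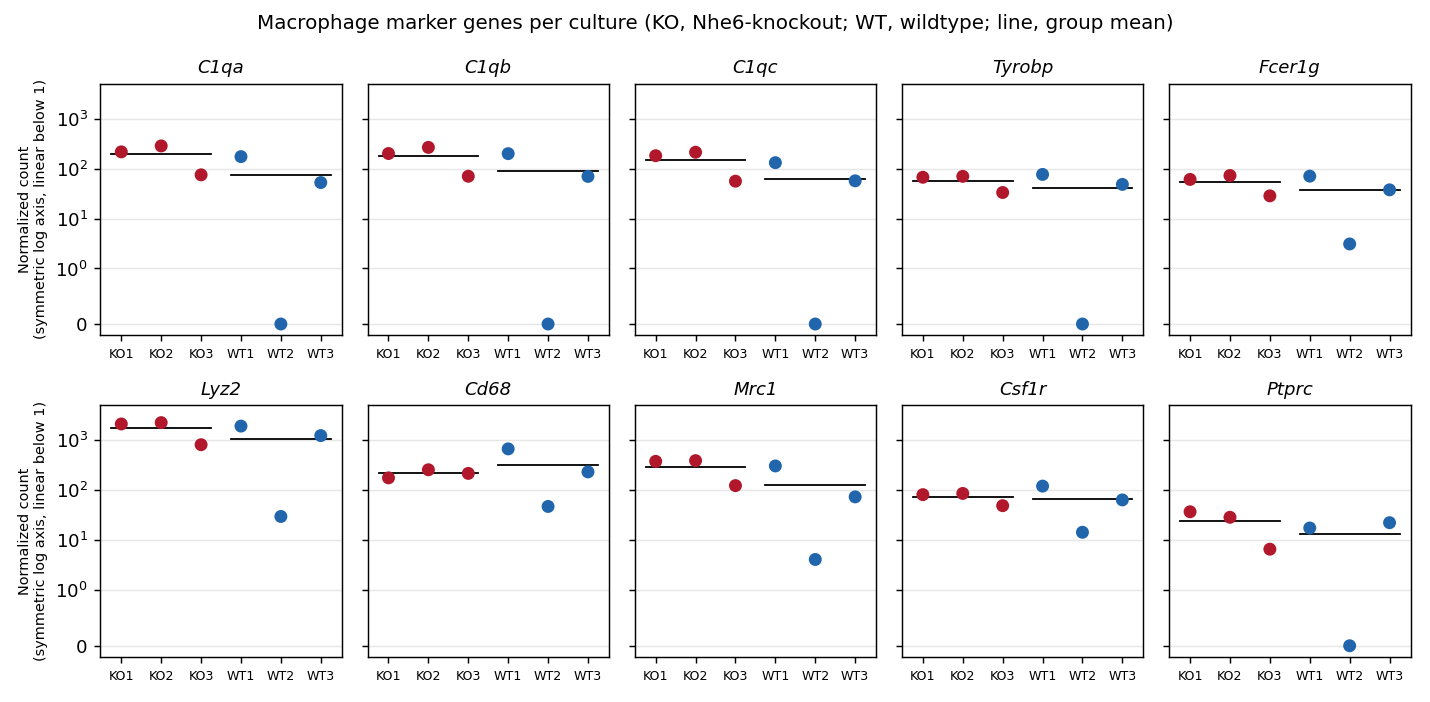
Normalized count of each of the 10 macrophage marker genes (y axis, symmetric log scale that is linear below 1) in the 3 *Nhe6*-knockout (KO, red) and 3 wildtype (WT, blue) cultures (x axis), with points for cultures and a line for the group mean. Wildtype replicate 2 (WT2) is the lowest culture in all 10 panels and lies at 0 in 5 of them.

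Wildtype replicate 2 was the lowest of the 6 cultures for all 10 genes, against 26.5% of the 13479 genes tested. For 7 of the 10 genes its normalized count was at most 10% of the lowest other culture, which held for 1.65% of all genes tested. The exceptions were *Cd68*, *Csf1r* and *Fcer1g*, and of these *Fcer1g* had only 3 reads there. *Nhe6*-knockout replicate 2 was the highest culture for 6 genes (*Lyz2*, *Mrc1*, *C1qa*, *C1qb*, *C1qc* and *Fcer1g*), wildtype replicate 1 for 3 (*Csf1r*, *Cd68* and *Tyrobp*) and *Nhe6*-knockout replicate 1 for *Ptprc*.

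The 3 chains of C1q, which assemble into the molecule that starts the classical complement pathway, are encoded side by side on the minus strand of chromosome 4 of GRCm38, *C1qb* from 136880129 to 136886187, *C1qc* from 136889804 to 136893065 and *C1qa* from 136895917 to 136898803. *C1qa*, the A chain, had 216, 283 and 74.8 normalized counts in *Nhe6*-knockout and 173, 0 and 52.4 in wildtype cultures. *C1qb*, the B chain, had 199.7, 265 and 70.1 in *Nhe6*-knockout and 199, 0 and 69.5 in wildtype cultures. *C1qc*, the C chain, had 181, 212 and 55.9 in *Nhe6*-knockout and 131, 0 and 56.7 in wildtype cultures. The cultures kept nearly the same order for the 3 chains, and the genotypes overlapped for each. A count of 0 reads in 1 library allows up to 3 reads. Against this limit, *C1qb* was at least 64.1-fold higher in wildtype replicate 1 and at least 22.5-fold higher in wildtype replicate 3 than in wildtype replicate 2. The corresponding bounds were 55.9-fold and 16.9-fold for *C1qa* and 42.3-fold and 18.3-fold for *C1qc*.

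The chains also kept a nearly fixed proportion within each culture that had them. *C1qa* made up 36.2% (95% exact binomial interval 32.2% to 40.3%) of the C1q reads in *Nhe6*-knockout replicate 1, 37.3% (34.0% to 40.7%) in replicate 2 and 37.3% (30.7% to 44.2%) in replicate 3. In wildtype replicates 1 and 3 its share was 34.4% (30.3% to 38.7%) and 29.3% (22.6% to 36.9%). These intervals cover counting error only, and the 5 intervals overlap. Per read of C1q, the share of *C1qb* lay between 0.335 and 0.395 and that of *C1qc* between 0.261 and 0.317, while the normalized counts of the 3 chains varied 3.79-fold to 5.41-fold over the same 5 cultures.

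Tyrobp and Fcer1g are small membrane adaptors that carry the activating signal of many myeloid receptors. *Tyrobp* lies on chromosome 7 from 30413760 to 30417585 and had 66.9, 69.7 and 33.1 normalized counts in *Nhe6*-knockout and 76.3, 0 and 48.1 in wildtype cultures. *Fcer1g* lies on chromosome 1 from 171229572 to 171234365 and had 60.5, 72.5 and 28.4 in *Nhe6*-knockout and 70.4, 3.10 (3 reads) and 37.4 in wildtype cultures. Both followed the C1q genes in the order of high, lower and nearly empty cultures. Their range over the 5 cultures was narrower, 2.3-fold for *Tyrobp* and 2.55-fold for *Fcer1g*.

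*Lyz2* encodes the lysozyme of macrophages, lies on chromosome 10 from 117277331 to 117282321 and was the most abundant of the 10 genes per length in 5 of the 6 cultures. It reached 2123, 2258 and 817 normalized counts in *Nhe6*-knockout and 1926, 29.9 and 1242 in wildtype cultures. Wildtype replicate 1 was 64.3-fold and wildtype replicate 3 was 41.5-fold above wildtype replicate 2, which had 29 reads. *Lyz1*, a close relative, had at most 5 reads in any library, and how reads that match both genes were treated is not given in the sources used here. *Mrc1*, the mannose receptor of tissue macrophages, lies on chromosome 2 from 14229392 to 14332057. It had 379, 392 and 124 normalized counts in *Nhe6*-knockout and 307, 4.13 and 73.8 in wildtype cultures, with 4 reads in wildtype replicate 2. Over the other 5 cultures the normalized counts of *Mrc1* had a 5.31-fold range.

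*Cd68* and *Ptprc* kept less closely to this order, while *Csf1r* kept it but fell less far in wildtype replicate 2 than *Tyrobp* and *Fcer1g*. *Cd68* encodes an endosomal and lysosomal membrane glycoprotein, and the gene lies on chromosome 11 from 69664213 to 69666153. The cultures had 177, 257 and 218 normalized counts of it in *Nhe6*-knockout and 674, 47.5 and 233 in wildtype cultures. The 3 *Nhe6*-knockout cultures were within 1.45-fold of each other for *Cd68*, although replicate 3 had far fewer C1q reads than replicates 1 and 2. *Cd68* was also the marker with the most reads, 46, in wildtype replicate 2.

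*Csf1r*, the receptor for the growth factor on which macrophages depend, lies on chromosome 18 from 61100598 to 61132149 and had 81.8, 86.4 and 49.2 normalized counts in *Nhe6*-knockout and 121, 14.4 and 64.2 in wildtype cultures. Wildtype replicate 2 kept 14 reads of *Csf1r*, and wildtype replicate 1 was 8.39-fold above it. *Csf1r* overlaps *Hmgxb3* on the opposite strand, and whether reads were counted by strand is not given in the sources used here. *Ptprc*, which encodes the leukocyte surface phosphatase CD45, lies on chromosome 1 from 138062861 to 138175708 and had 37.2, 28.8 and 6.63 normalized counts in *Nhe6*-knockout and 17.6, 0 and 22.5 in wildtype cultures. Its counts rest on 7 to 35 reads where it was found, so its order among the cultures is the least certain.

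Relative to C1q, the other markers divided by how far they kept a fixed proportion. *Mrc1* had 0.413 to 0.636 reads per C1q read, a 1.54-fold range over the 5 cultures with C1q reads. The range was 2.2-fold for *Fcer1g*, 2.34-fold for *Lyz2*, 2.94-fold for *Tyrobp*, 3.16-fold for *Csf1r*, 3.81-fold for *Ptprc* and 4.50-fold for *Cd68*. *Cd68* had 0.298 and 0.339 reads per C1q read in *Nhe6*-knockout replicates 1 and 2, and 1.08, 1.34 and 1.31 in *Nhe6*-knockout replicate 3 and wildtype replicates 1 and 3. *Lyz2* had 2.97 to 4.07 reads per C1q read in 4 cultures and 6.95 in wildtype replicate 3. Wildtype replicate 3 also had the highest proportion of *Tyrobp*, *Fcer1g*, *Csf1r* and *Ptprc* to C1q. These ratios are descriptions, since each culture gives 1 value.

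**Figure D2:**
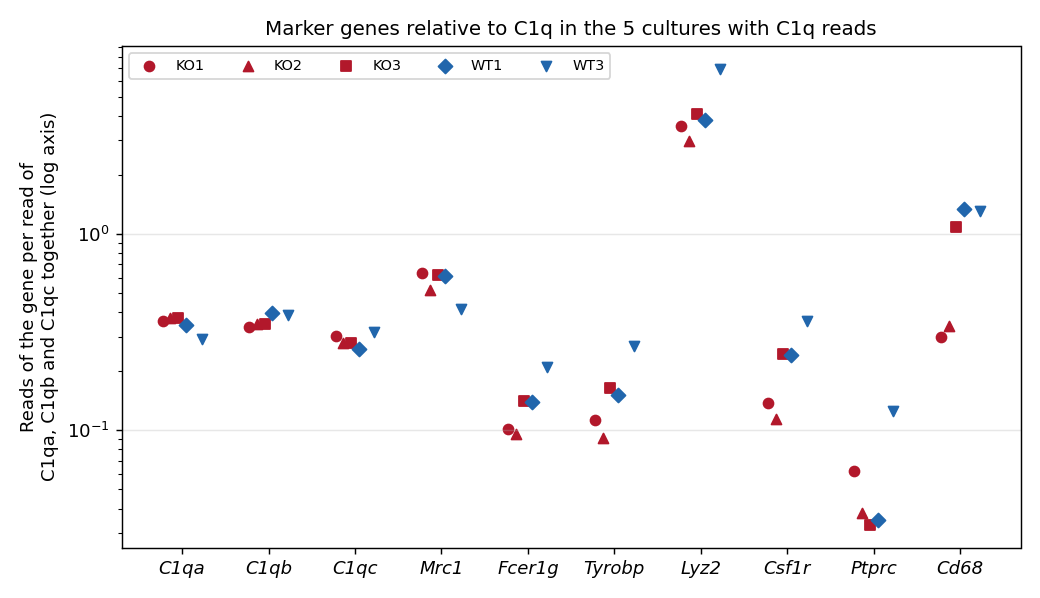
Reads of each marker gene per read of *C1qa*, *C1qb* and *C1qc* together (y axis, log scale) in the 5 cultures with C1q reads (red, *Nhe6*-knockout; blue, wildtype; 1 symbol per culture). The C1q chains lie close together, *Mrc1* varies 1.54-fold, and *Cd68* splits into 2 low cultures (KO1 and KO2) and 3 high ones.

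Per kilobase of exon, the mean level over the 6 cultures was 1063 normalized counts for *Lyz2*, 213 for *Cd68*, 128 for *C1qa*, 123 for *C1qb*, 73.5 for *Tyrobp*, 54.9 for *C1qc*, 51.9 for *Fcer1g*, 33.5 for *Mrc1*, 12.0 for *Csf1r* and 1.03 for *Ptprc*. *Lyz2* came first in every culture but wildtype replicate 2, where *Cd68* did. Neighbours from *Cd68* to *Fcer1g* changed places among the cultures, for example *Cd68* lay below *C1qa* in *Nhe6*-knockout replicates 1 and 2, while *Fcer1g* lay above *Mrc1* and *Csf1r* above *Ptprc* in all 6. The exon length joins all annotated exons, which lowers the value of a gene such as *Ptprc* with many unused exons.

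To find out whether macrophage content differed between the genotypes, each gene was compared by the two-sided quasi-likelihood test of edgeR over all 13479 genes tested. Of the 10 genes, 0 had an adjusted p under 0.05, against 0.0668% of all genes tested (0.0371% lower and 0.0297% higher in *Nhe6*-knockout cells). An unadjusted p under 0.05 was found for 0 of the 10, against 11.8% of all genes. DESeq2 also called 0 of the 10, against 4.65% of all genes (1.82% lower and 2.83% higher), and limma-voom called 0, against 0.0742% (0.0371% in each direction). The fitted log2 fold change was above 0 for 9 genes and below 0 for *Cd68*, with a median of 0.77, against -0.02 over all genes. *C1qa* averaged 191 ± 106 normalized counts in *Nhe6*-knockout against 75.2 ± 88.8 in wildtype cultures (SD, n = 3 each), a log2 fold change of 1.34 with a 95% interval from -1.84 to 4.53 (adjusted p = 0.759, edgeR). *Lyz2* had 1733 ± 796 and 1066 ± 960 (SD, n = 3 each), a log2 fold change of 0.70 with an interval from -2.05 to 3.45 (adjusted p = 0.863). *Csf1r* had 72.5 ± 20.3 and 66.6 ± 53.5 (SD, n = 3 each), a log2 fold change of 0.12 with an interval from -1.59 to 1.83 (adjusted p = 0.963).

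The intervals were wide enough to hold changes of several fold in either direction, and for no gene did the 3 *Nhe6*-knockout cultures lie wholly above or below the 3 wildtype cultures. Among all genes tested, 10.3% were higher and 9.57% were lower in *Nhe6*-knockout cells without such an overlap. Without wildtype replicate 2 the intervals were narrower. EdgeR then called 0 of the 10 genes, against 2.88% of the 13728 genes then tested (1.26% lower and 1.62% higher). An unadjusted p under 0.05 was found for 0 of the 10, against 19.5% of all genes then tested. The median log2 fold change of the 10 was 0.19, with 6 genes above 0 and 4 below. *C1qa* then had a log2 fold change of 0.75 (interval from -0.94 to 2.45), *Mrc1* of 0.64 in place of 1.21, and *Lyz2* of 0.12 (interval from -0.96 to 1.21). *Tyrobp* and *Fcer1g* moved from 0.45 and 0.54 to -0.14 and -0.01, and *Csf1r* moved to -0.36. *Cd68* had the value farthest from 0, a log2 fold change of -1.06 (interval from -2.13 to 0.00, adjusted p = 0.257). With wildtype replicate 1 left out in place of replicate 2 its value was 0.63.

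**Figure D3:**
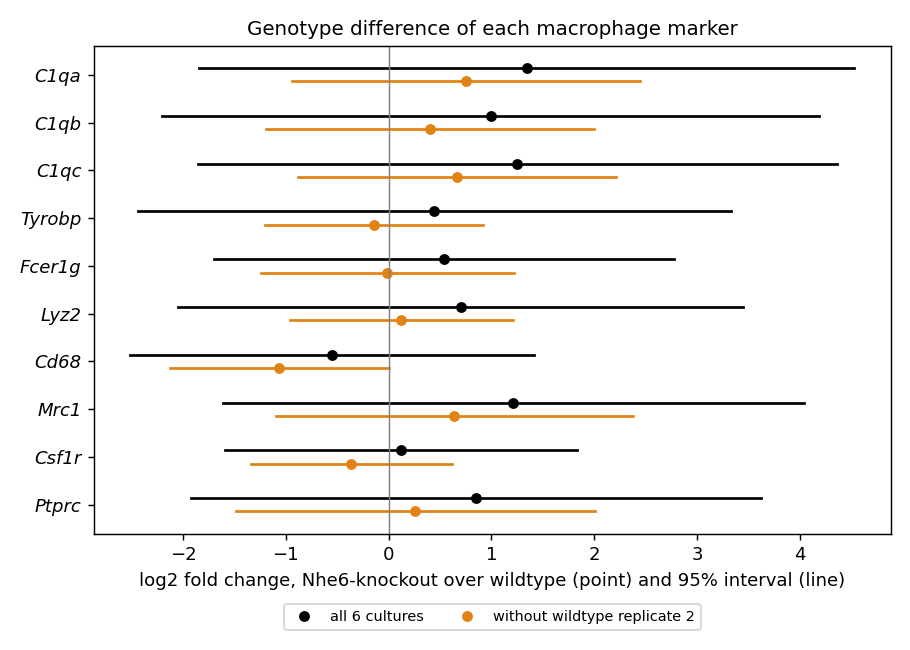
Log2 fold change of each marker gene in *Nhe6*-knockout over wildtype cultures (x axis; points) with its 95% interval (lines), from edgeR with all 6 cultures (black) and without wildtype replicate 2 (orange). The intervals cross 0 in both fits for every gene, with *Cd68* without wildtype replicate 2 ending at 0.00.

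Many other macrophage genes gave the same picture of the cultures, but the sum over their list did not. Of 32 further macrophage genes, 24 were tested, and 0 had an adjusted p under 0.05 in edgeR with all 6 cultures, against 0.0668% of all genes tested. For 2 of the 24 the unadjusted p was under 0.05, against 11.8% of all genes. The median log2 fold change was 0.61, with 17 genes above 0, and without wildtype replicate 2 it was 0.13. In wildtype replicate 2, 18 of the 32 genes had 0 reads, against 1 to 5 in each of the other cultures. It was the lowest culture for 17 of the 24 tested, against 26.5% of all genes tested. The 32 genes summed to 17598 normalized counts there, against 12968 to 23430 in the other cultures. Over the whole count table, 15624 genes had a read in wildtype replicate 2, against 15678 to 16032 in the other cultures. *Adgre1*, which encodes the F4/80 antigen, had 73.3, 54.8 and 36.0 normalized counts in *Nhe6*-knockout and 51.8, 0 and 56.7 in wildtype cultures. *Ctss*, a lysosomal protease of antigen-presenting cells, had 181, 203 and 79.5 in *Nhe6*-knockout and 141, 0 and 84.5 in wildtype cultures. *Spi1*, the gene of PU.1, had 5 to 19 reads in 5 cultures and 0 in wildtype replicate 2.

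Some of the other macrophage genes varied between the cultures that had C1q. *Cd163*, a scavenger receptor for haemoglobin, had 125, 121 and 21.8 normalized counts in *Nhe6*-knockout and 31.3, 0 and 0 in wildtype cultures. Wildtype replicate 3 thus had 0 reads of *Cd163* beside 167 reads of C1q and 53 of *Adgre1*. EdgeR gave *Cd163* a log2 fold change of 3.07 ± 1.56 (standard error) with an adjusted p of 0.503. *F13a1*, coagulation factor XIII A, had 338, 440 and 64.4 in *Nhe6*-knockout and 310, 1.03 and 41.7 in wildtype cultures. *Lyve1*, a hyaluronan receptor that lymphatic endothelium shares, had 17.0, 22.3 and 4.73 in *Nhe6*-knockout and 30.3, 24.8 and 0 in wildtype cultures, and so did not follow the C1q genes. *Cybb*, a subunit of the phagocyte NADPH oxidase, was highest where the 10 markers were lowest, with 140 normalized counts in wildtype replicate 2 and 37.9 to 58.4 in the other cultures.

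Several listed genes that macrophages share with other cells stayed high in wildtype replicate 2. *Lgmn* and *Gpnmb*, which act in lysosomes, had 1640 and 5105 normalized counts there, and *Maf* had 5464. *Gpnmb* averaged 1698 ± 507 normalized counts in *Nhe6*-knockout against 3883 ± 1060 in wildtype cultures (SD, n = 3 each). DESeq2 called 2 genes of the list, both lower in *Nhe6*-knockout cells, where 4.65% of all genes were called. *Gpnmb* was among them (adjusted p = 0.00891), while its adjusted p in edgeR's test was 0.183.

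**Figure D4:**
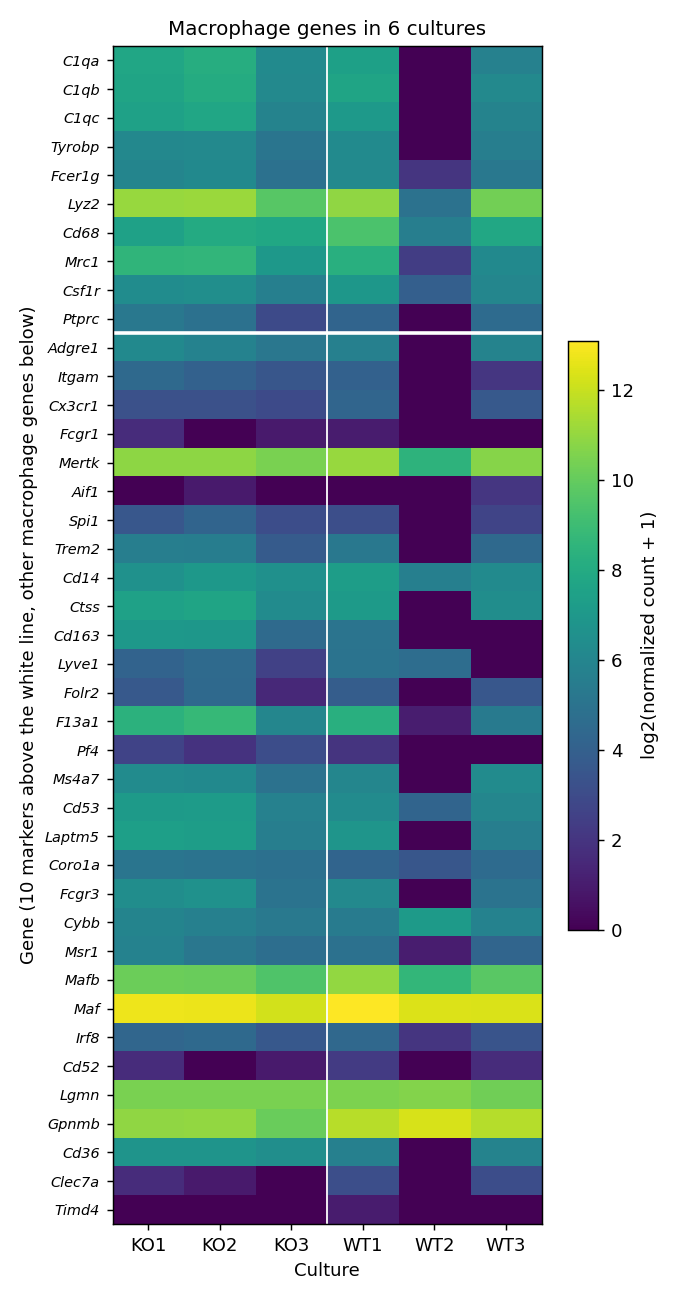
Log2 of the normalized count plus 1 (colour) for the 10 marker genes (above the horizontal white line) and other macrophage genes (below it) in each culture (columns; KO, *Nhe6*-knockout; WT, wildtype). The WT2 column is dark at 0 reads for 5 of the 10 markers and 18 of the other genes and stays bright for *Maf*, *Lgmn* and *Gpnmb*.

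The ligands of Csf1r are made mostly by other cells than macrophages. *Csf1* had 26296, 26543 and 30263 normalized counts in *Nhe6*-knockout and 12163, 11962 and 17408 in wildtype cultures, without overlap, as were 10.3% of all genes tested in this direction. EdgeR gave a log2 fold change of 1.00 ± 0.21 (standard error) that missed the threshold (adjusted p = 0.123), whereas DESeq2 called it (adjusted p = 2.19e-04). *Il34*, the second ligand, had 506, 558 and 842 in *Nhe6*-knockout and 1026, 900 and 1041 in wildtype cultures, also without overlap, as were 9.57% of all genes in this direction, with a log2 fold change of -0.64 ± 0.22 (standard error) and an adjusted p of 0.329. Wildtype replicate 2 had the lowest count of both *Csf1* and *Csf1r*, but its *Csf1* count was close to that of wildtype replicate 1, whereas wildtype replicate 1 was 8.39-fold above it for *Csf1r*. Of the 9 genes of this axis, 5 were tested and edgeR called 0, with 2 (*Csf1* and *Il34*) at an unadjusted p under 0.05, against 11.8% of all genes tested.

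Receptors and signalling proteins that work with Tyrobp or Fcer1g were mostly low. Of 18 such genes 10 were tested. EdgeR called 0 of them, against 0.0668% of all genes tested, and 0 had an unadjusted p under 0.05, against 11.8%. DESeq2 and limma-voom also called 0, against 4.65% and 0.0742% of all genes. *Fcgr3*, an Fc receptor that signals through Fcer1g, had 83.9, 96.7 and 31.2 normalized counts in *Nhe6*-knockout and 71.4, 0 and 31.0 in wildtype cultures. *Trem2*, a lipid receptor that signals through Tyrobp, had 47.8, 46.5 and 12.3 in *Nhe6*-knockout and 36.2, 0 and 21.4 in wildtype cultures. *Syk* and *Lyn*, kinases that many cells use, were instead highest in wildtype replicate 2, with 381 and 452.

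The proteases that work with C1q were present in all 6 cultures. Beside genes of the classical pathway, the list of 8 held *C1qbp* and *Cd93*, named for or once proposed to have binding to C1q. All 8 were tested and edgeR called 0, against 0.0668% of all genes tested, with 1 at an unadjusted p under 0.05, against 11.8%. Wildtype replicate 2 was the lowest culture for 5 of the 8, against 26.5% of all genes tested. *Cd93*, a surface receptor once proposed to bind C1q, kept the order of the C1q genes, with 61.6, 82.7 and 24.6 normalized counts in *Nhe6*-knockout and 46.0, 3.10 and 22.5 in wildtype cultures. *C1ra* and *C1s1*, the proteases of the C1 complex, had 452 and 1009 normalized counts in wildtype replicate 2, where C1q had 0 reads, and 1615 to 2359 and 1824 to 4134 in the other cultures. *Serping1*, the C1 inhibitor, averaged 2413 ± 156 normalized counts in *Nhe6*-knockout against 6187 ± 1943 in wildtype cultures (SD, n = 3 each), a log2 fold change of -1.36 ± 0.23 (standard error) with an adjusted p of 0.0983 in edgeR and 3.20e-05 in DESeq2. Without wildtype replicate 2, 2 of the 8 genes passed edgeR's threshold, both lower in *Nhe6*-knockout cells. They were *Serping1* (log2 fold change -1.08, adjusted p = 0.0217) and *C2*, which encodes the next protease of the pathway (log2 fold change -2.09, adjusted p = 0.00674). Calls were then more common among all genes, with 1.26% of 13728 lower and 1.62% higher, against 0.0371% and 0.0297% with every culture. *C2* had 479, 487 and 431 normalized counts in *Nhe6*-knockout and 1864, 253 and 2092 in wildtype cultures.

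Of 11 phagosome and lysosome genes, 10 averaged at least 100 normalized counts, and the other was *Lyz1*. These 10 were tested and edgeR called 0, against 0.0668% of all genes tested, with 1 at an unadjusted p under 0.05, against 11.8%. Wildtype replicate 2 was the lowest culture for 1 of the 10, against 26.5% of all genes. *Ctsd*, the protease cathepsin D, had 43631, 44955 and 45585 normalized counts in *Nhe6*-knockout and 50023, 109090 and 34822 in wildtype cultures.

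Markers of lymphocytes, neutrophils and mast cells were nearly missing. All 11 lymphocyte genes and all 9 neutrophil and mast cell genes found in the table had fewer than 10 reads in every library. Of 10 dendritic cell and MHC class II genes, 7 had fewer than 10 reads in every library, and *Cd74*, the MHC class II chaperone, had 1 to 14. *H2-Eb1*, an MHC class II chain, had 324 normalized counts in wildtype replicate 2 against 10.8 to 33.1 in the others. *Zbtb46*, a transcription factor that endothelial cells also express, had 98.0 in wildtype replicate 2 and 263 to 383 in the others. At least some of these leukocytes also carry Fcer1g, Tyrobp or CD45, and *Ptprc* itself had at most 35 reads in any library. Which cells gave the reads of these shared genes was not tested.

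Because PVM/Ms are described as melanocyte-like, melanocyte genes were set beside the macrophage markers. *Dct*, *Tyrp1*, *Tyr*, *Mlana* and *Slc45a2*, which act in pigment synthesis and melanosomes, had 178, 290, 24.6, 33.2 and 35.3 normalized counts in wildtype replicate 3. In the other 5 cultures each of these 5 genes had at most 5 reads. The 3 cultures with the most macrophage transcripts, *Nhe6*-knockout replicates 1 and 2 and wildtype replicate 1, had at most 1 read of each. Other genes of the list differed from this pattern. *Mitf* had 246 to 744 reads and *Gsta4* 1594 to 4409 over all cultures. *Sox10* had 44 reads in *Nhe6*-knockout replicate 2, 41 in wildtype replicate 1 and 23 in wildtype replicate 3. *Kit* had 2 to 27 reads, most in wildtype replicate 3, and *Ednrb* and *Kcnj10* had at most 6. *Pmel*, a melanosome fibre protein, had 24 to 74 reads in those 5 cultures and 147 in wildtype replicate 3. Of 12 melanocyte genes 5 were tested, and edgeR, DESeq2 and limma-voom called 0 of them, against 0.0668%, 4.65% and 0.0742% of all genes tested. An unadjusted p under 0.05 was found for 0 in each, against 11.8%, 13.8% and 11.8% of all genes.

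Genes outside the 10 whose level followed them most closely were ranked over the 6 cultures by the root mean square difference between centred log2 CPM profiles, among 12496 genes. The nearest was *Fcgr3* (0.19 log2 units), followed by *Ms4a6d* (0.26), *Igf1* (0.30), *Tfcp2l1* (0.30), *Col6a6* (0.32), *Cd84* (0.34), *Ms4a6c*, *Lilrb4a* and *Clec4d* (0.37 each) and *Fndc5* (0.38). *Fcgr3*, *Ms4a6d*, *Cd84*, *Ms4a6c*, *Lilrb4a* and *Clec4d* are known from leukocytes and had 0 reads in wildtype replicate 2. *Igf1*, a growth factor that fibroblasts also make, had 1654 normalized counts in wildtype replicate 2 and 21519 to 55341 in the others. *Tfcp2l1*, an epithelial transcription factor, had 89.8 against 771 to 2456. Of the 10 markers themselves, *Tyrobp* lay nearest to their common profile (0.24) and *Cd68* farthest (1.00), followed by *Csf1r* (0.88).

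Wildtype replicate 2 also differed in genes of other cell types. Among the tested genes of each list, it was the lowest culture for 6 of 10 fibroblast, 4 of 10 mural and 3 of 9 endothelial genes, against 26.5% of all genes. In lists this short, the mural and endothelial counts lay near that share, and the genes of each list went in both directions. *Acta2*, smooth muscle actin, had 16275 normalized counts in wildtype replicate 2 against 29.3 to 1204 in the other cultures. *Tagln* and *Cspg4* were also highest there, while *Pdgfrb*, *Rgs5*, *Des* and *Abcc9* were lowest. *Col1a1*, a collagen I chain of fibroblasts, had 27187 against 207 to 1228, and *Col1a2* and *Thy1* were also highest. *Lum*, the fibroblast proteoglycan lumican, had 1156 against 2859 to 7560, and *Col3a1*, *Dcn*, *Pdgfra*, *Fbln1* and *Fap* were also lowest. *Emcn*, which encodes the endothelial sialomucin endomucin, had 410 against 9900 to 18393, and *Eng* and *Egfl7* were also lowest. The other tested endothelial genes were highest in wildtype replicate 2. *Flt1* had 3175 there against 378 to 1150, *Cd34* had 4867 against 793 to 1465, and *Kdr*, *Esam* and *Tek* were also highest. *Cdh5*, which encodes VE-cadherin, was likewise highest there at 5200, but its counts also separated the genotypes. Wildtype replicates 1 and 3 followed with 2509 and 3470, and the *Nhe6*-knockout replicates had only 220, 232 and 179. The log2 ratio of the group means of the 10 summed genes was 0.09 without wildtype replicate 2, in place of 0.65. The part of these differences in the macrophage result was not tested.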

How the data were processed

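RNA of 6 cultures (3 *Nhe6*-knockout, 3 wildtype) was made into stranded poly(A)-enriched libraries and sequenced for 75 cycles. The authors deposited raw read counts per gene symbol, without normalization. The submitters' processing notes name STAR 2.7.7a, HTSeq 0.13.5, DESeq2 1.26.0 and mm10, and the annotation and the strand setting are not given in the sources used here. The last 5 lines of the table (22.2% of reads) count reads that were not assigned to a gene, and were left out.

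The genes and lists were chosen with earlier results of these data known. Genes were filtered (filterByExpr, minimum count 10), normalized by TMM and tested by genotype with edgeR 4.0.16 in R 4.3.3 (quasi-likelihood test, Benjamini-Hochberg adjustment over 13479 genes, threshold 0.05). A standard error is the log2 fold change divided by the square root of F. Named genes were the 10 markers, genes of the lists and the 10 nearest profiles (mean of at least 1 CPM, prior count of 2). Positions came from GENCODE M21 on GRCm38. With 3 against 3, the smallest exact permutation p is 0.1. Alternatives were other normalizations and filters, DESeq2 1.42.0, limma-voom (limma 3.58.1), a replicate block and leaving out each culture. A sum of *Nhe6*-knockout replicates 1 and 2 was added after seeing the data. Tests were tried on simulated counts. p-values measure the spread between cultures, each treated as a separate pool. Results for some genes are not reported here.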

Additional observations from a re-analysis of the deposited data

How the results depend on the processing

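Of the 10 marker genes, 0 passed the threshold in each of 14 alternatives, and over 133 values the lowest adjusted p was 0.257 (*Cd68* without wildtype replicate 2). The direction turned in 7 of these values. The log2 fold change of *Cd68* was 0.12 with limma-voom, 0.064 with the replicate block and 0.63 without wildtype replicate 1 (range with 1 culture left out, -1.06 to 0.63). *Csf1r* was -0.03 without *Nhe6*-knockout replicate 2 and -0.36 without wildtype replicate 2 (range -0.36 to 0.88), and without wildtype replicate 2 *Tyrobp* was -0.14 (range -0.14 to 1.23) and *Fcer1g* -0.011 (range -0.011 to 1.40). For the other 6 genes the values stayed above 0, and limma-voom gave a median of 2.00 over the 10 genes in place of 0.77. With at least 10 counts in every library, 3 of the 10 genes (*Lyz2*, *Csf1r* and *Cd68*) could be tested.

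DESeq2 called 2 of the other macrophage genes in place of 0. Over all genes the count was 9, and it was 21 without a filter beyond 1 count, 21 with at least 10 counts in every library, 627 with DESeq2, 1 with *Nhe6*-knockout replicates 1 and 2 summed, and 0 to 395 with 1 culture left out (395 without wildtype replicate 2, 0 without *Nhe6*-knockout replicate 3). The log2 ratio of the summed markers was 0.65 and lay between 0.09 (without wildtype replicate 2) and 1.60 (mean of log2 CPM), and was 1.57 without wildtype replicate 1. These shifts were smaller than 2.04, the SD of the log2 sums between cultures of a genotype. That SD includes the low sum of wildtype replicate 2, so it sets a wide limit and does not show that the ratio is stable. The replicate block gave 2 genes over all genes. The correlations of deviations from the group means were 0.21, -0.19 and 0.11 for the same-numbered cultures, so the numbers were not treated as pairs. The causes of these changes were not tested. Depth limits *Ptprc* most, with at most 35 reads per library.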
